A study of Aliger gigas with 7 samples.

Results

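Solute carriers and membrane transporters are the proteins that carry sugars, amino acids, ions, metals and metabolites across the membranes of a cell. In the ovary of the queen conch, a marine gastropod, 43 of the 4328 gene titles on the array were taken as this group. They were chosen by words in the title, among them solute carrier, sideroflexin, symporter, exchanger, amino acid transporter, organic anion and the calcium-transporting ATPases, and titles with the word carnitine were to be left out. No title was lost that way. The choice went by name and used no measured value, but it was made with earlier results of these data known. The study compared ovaries of 4 females from Pelican Shoal, an offshore site in the Florida Keys where conchs reproduce normally, with ovaries of 3 animals from Tingler Island, a nearshore site where reproduction is impaired. All 7 were wild, mature adults sampled on the same day without any treatment. The offshore animals (OF1 to OF4) and 2 of the nearshore animals (NF1 and NF3) had the label normal female. The other nearshore animal (NM3) was an apparent imposex female, meaning that male sex organs had formed on a female. Each sample was 1 animal, so the p-values measure the spread between these animals. Each group came from 1 place, so site and any feature of these particular animals cannot be told apart. In a whole ovary, fewer cells of a type and less RNA per cell cannot be told apart either.

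Most of these proteins belong to the solute carriers, which use the gradient of another ion or of the solute itself to drive transport. Family 25 sits in the inner mitochondrial membrane and moves metabolites between the cytosol and the matrix. Other families take up amino acids at the cell surface, exchange sodium for protons or calcium, or load zinc, nucleotides and sulfate donors into organelles. The calcium-transporting ATPases instead spend ATP to pump calcium out of the cytosol. A growing oocyte takes in nutrients and yolk precursors from its surroundings and keeps a steep balance of ions, and both tasks depend on transporters. The titles are names that the authors attached to conch sequences, in the nomenclature of other animals and plants. Roles given below are those of the named protein in mammals unless another organism is named, and the title marks a resemblance, not an established conch gene.

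The deposited values are log2 signals, 1 per title and array. The array mean was 5.83 in NM3 and 5.88 to 5.89 in the other animals. Of the 43 titles, 42 had all 7 values, and Solute Carrier Family 24, Member 5 lacked one in NM3. In the list of ovary and oocyte titles, the yolk precursor Vitellogenin 2 and the germ cell protein Piwi-like 1 were bright. Other titles of that list were dim, such as Mitotic Cyclin B1-type at 1.02 to 2.15. Collectin Sub-family Member 11, of the haemocyte list, was at 15.26 to 17.16, so brightness alone does not mark the tissue. Vitellogenin 2 was at 12.69 in NF1 and at 16.35 to 17.34 in the other animals. Piwi-like 1 was at 11.55 in NF1 and at 13.31 to 15.06 in the others. The lists of other cell types were matched by words in the title and also catch titles of other kinds. The mean level of the 9 titles of the muscle list was 6.12 to 6.62 in the nearshore animals and 4.90 to 5.74 in the offshore animals. Of the 9, 3 rose (33.3%, against 3.90% of all titles). One of the 3, Myosin, Heavy Polypeptide 9, Non-muscle, is not a muscle protein. Without that title and a cytoplasmic myosin light chain, 2 of 7 rose, and the mean of the 6 of these with all values was 6.02 to 6.50 nearshore and 4.38 to 5.64 offshore. For 10 titles of ovary and oocyte the means were 7.92 to 8.59 nearshore and 8.35 to 8.71 offshore, and 0 passed. Of these 10, 6 (60.0%) had an unadjusted p from limma under 0.05, against 26.1% of all titles. The median size of their difference was 1.32, against 0.54 over all titles, with 6 lower and 4 higher nearshore. Means of the lists searched for digestive gland (31 titles), haemocyte (13) and nerve (27) overlapped between the sites. In the digestive list 2 titles rose and 2 fell (12.9% changed, against 9.24% of all titles). Of these 4, Phospholipase C, Beta 4 (2.24) and Phospholipase D2 (-1.87) were matched by the letters lipase and do not name digestive enzymes. In the haemocyte list 1 rose and 1 fell (15.4%), and in the nerve list 1 rose (3.70%). However, 12 of the nerve titles are axonemal dyneins of cilia and 2 of the haemocyte titles are plectins. Single digestive titles set animals apart within both sites. Amylase, Alpha 1A; Salivary was at 14.12 in OF1, 12.70 in OF3, 11.80 in NM3 and 9.16 in NF1, and at 4.81 to 5.83 in OF2, OF4 and NF3. Similar To Pancreatic Triglyceride Lipase was at 9.74, 8.93, 9.42 and 7.23 in the first 4 of these animals and at 3.06 to 4.55 in the others, and Cathepsin L was likewise highest in OF1, OF3 and NM3. No title of these lists was at 0, and the part of the muscle and digestive levels in the transporter results was not tested. Of the transporter titles, 26 lay below the median level of the table (5.17) and 11 among its lowest 25%, under 2.64. The table has no background signals, so it is not known which of these low values stand above background.

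Between the sites, few transporter titles differed beyond the spread between animals. Only 2 of the 43 changed, with an adjusted p from limma under 0.05. Sideroflexin 1, a mitochondrial serine carrier, fell nearshore, and Solute Carrier Family 12, Member 1 (SLC12A1), a cotransporter that brings sodium, potassium and chloride into the cell, rose. That is 4.65% of the group, against 9.24% of all 4328 titles (3.90% higher and 5.34% lower nearshore). With an unadjusted p under 0.05 there were 12 transporter titles, or 27.9%, against 26.1% of all titles. The values of the 2 sites did not overlap in 11 transporter titles, or 25.6%, against 24.4% of all titles. Of the 43, 23 had a lower and 20 a higher mean nearshore, and the sign turned in 14 of them under at least 1 of the alternative fits. The median log2 difference, nearshore minus offshore, was -0.08, against -0.01 over all titles, and its median size was 0.52 against 0.54. All differences below are given in this direction.

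**Figure D1:**
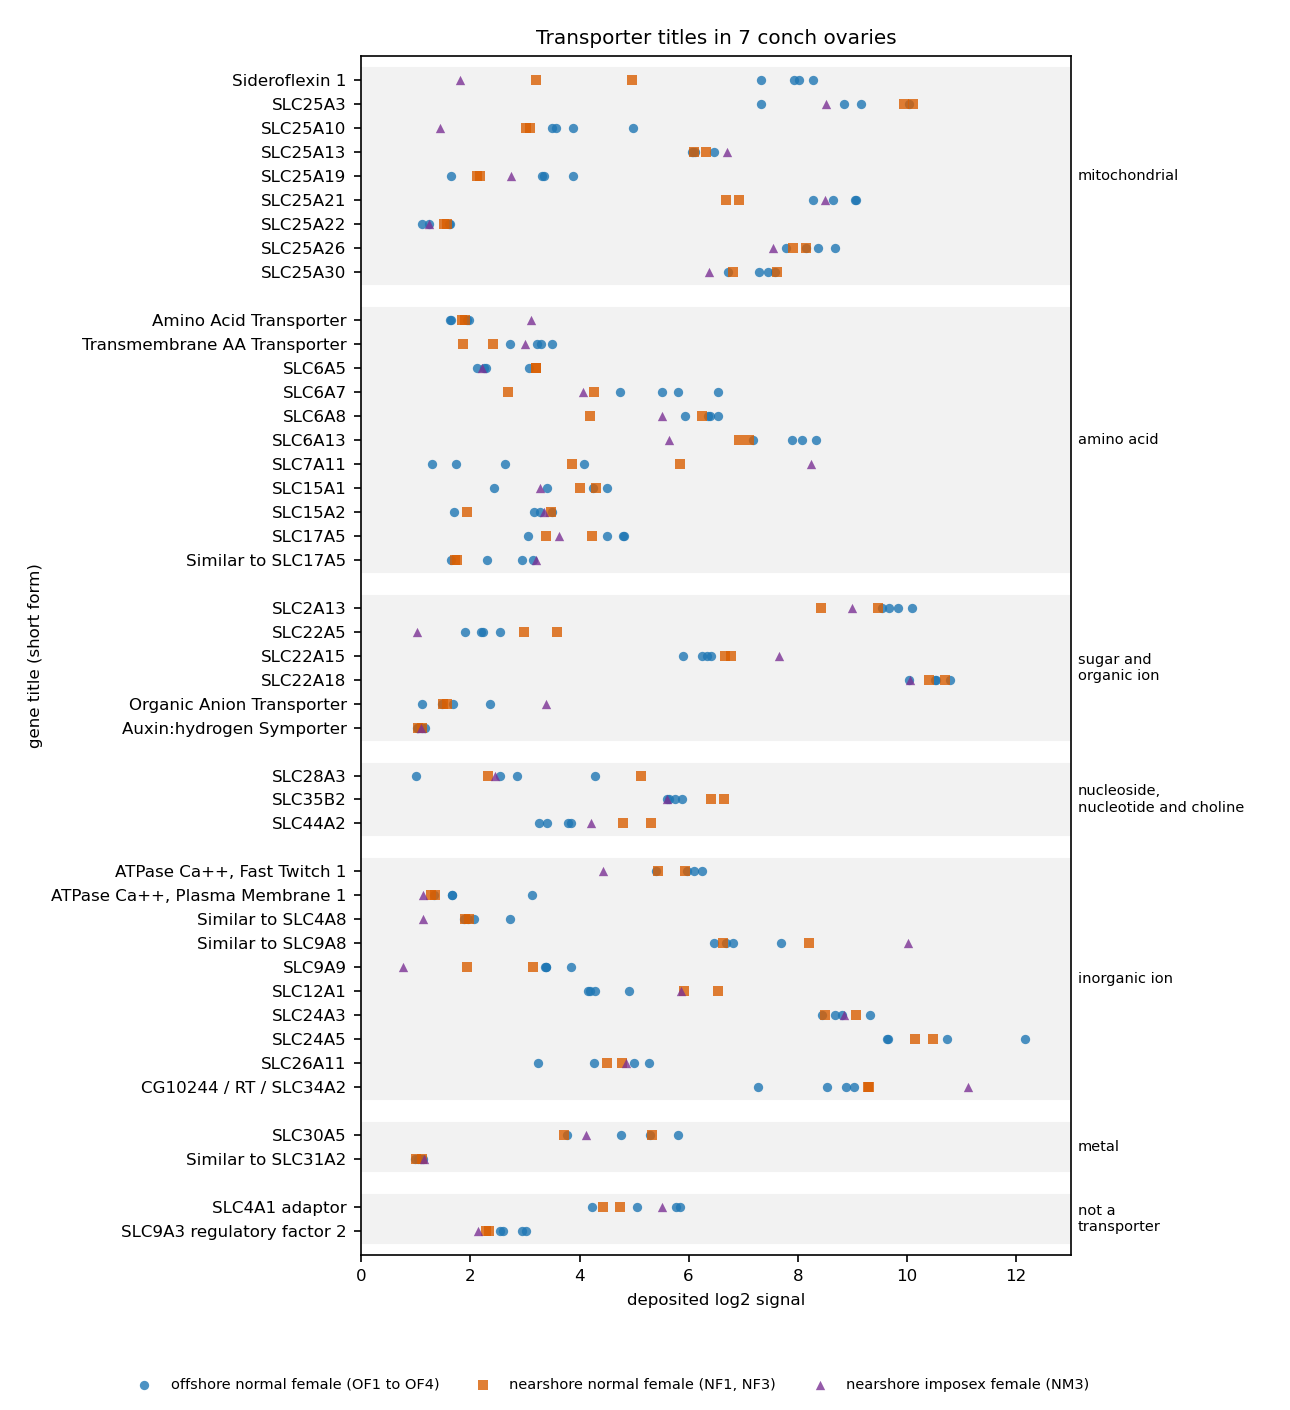
Deposited log2 signal (horizontal axis) of each of the 43 titles (rows, grouped by what the named protein carries), with 1 point per animal. Sideroflexin 1 is the row where offshore and nearshore points lie furthest apart, with offshore animals at 7.33 to 8.29 and nearshore animals at 1.81 to 4.96.

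**Figure D2:**
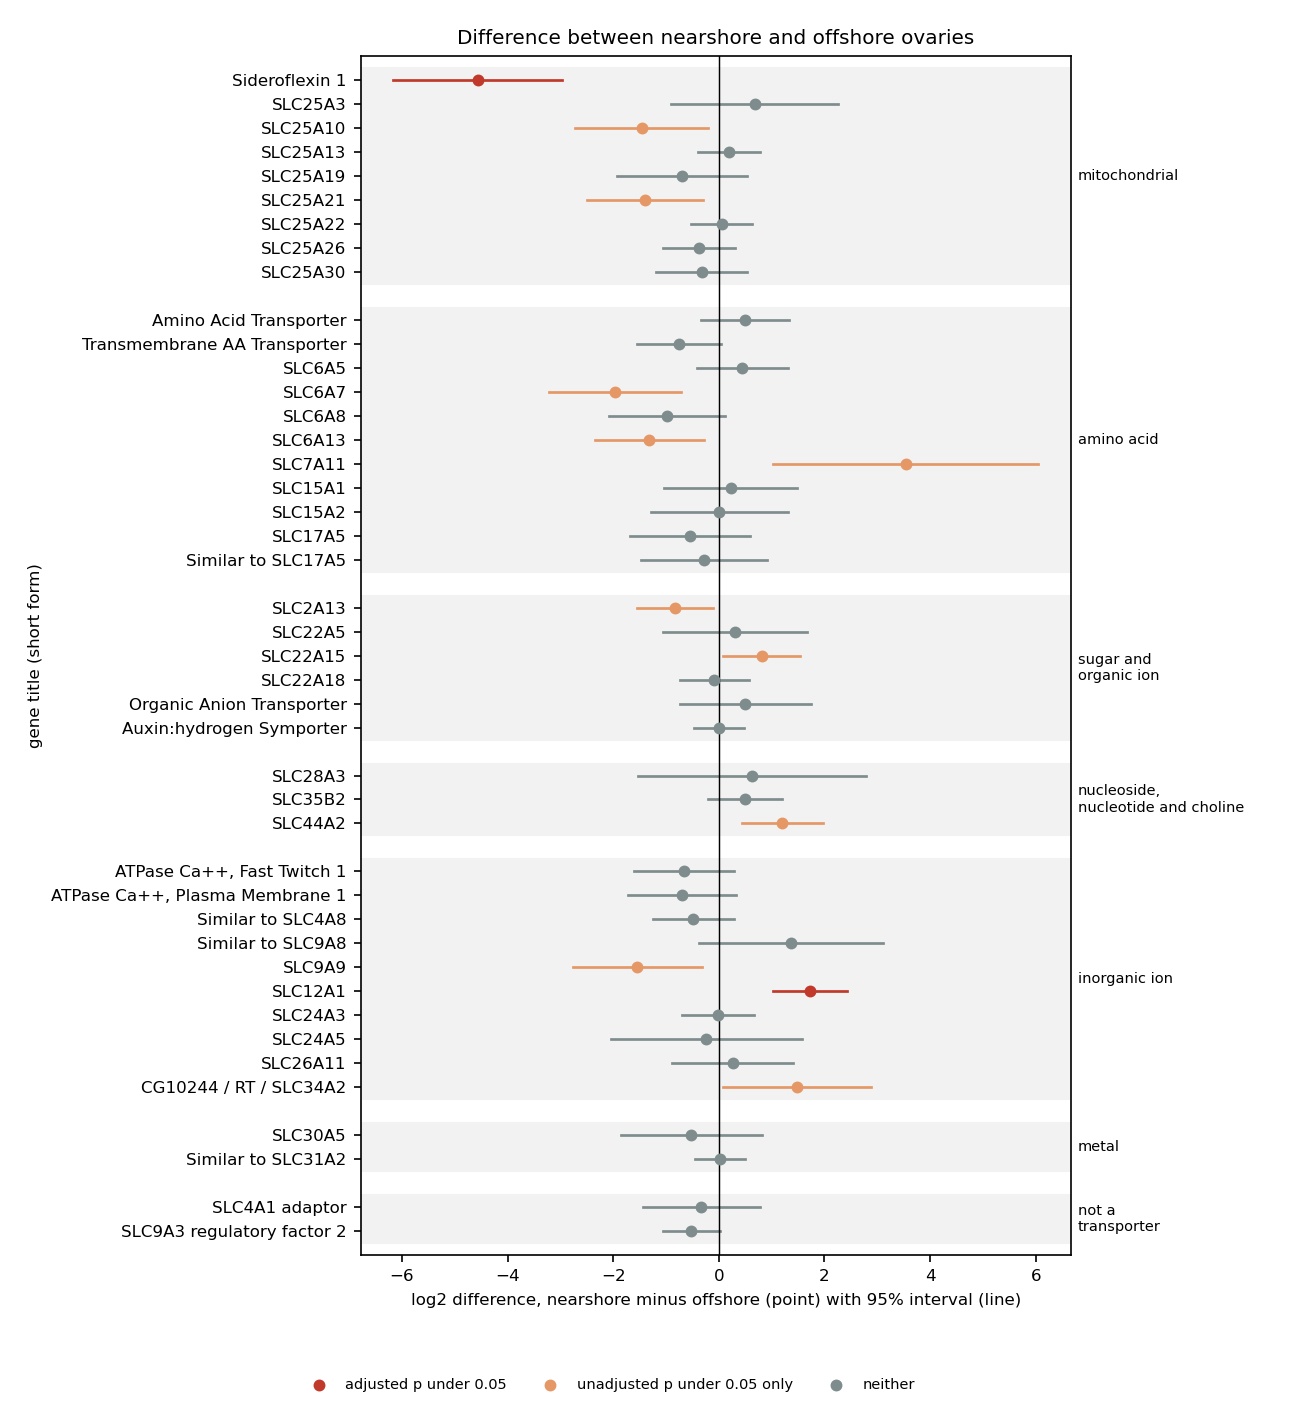
Log2 difference between nearshore and offshore means (point) with its 95% interval from limma (line) for each of the 43 titles. The 2 red titles passed the adjusted test, the 10 orange titles only an unadjusted p under 0.05, and most intervals include 0.

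Among the 9 mitochondrial carriers of the group, 1 fell, 0 rose and 8 did not pass, with a median difference of -0.38. The search words did not match 2 further titles that name mitochondrial carriers. That of carnitine and acylcarnitines, described below, rose by 2.49 (SE 0.40, adjusted p = 0.0176), and that of folate had -0.29 (adjusted p = 0.537). Sideroflexin 1 was at 8.02, 7.33, 8.29 and 7.93 in OF1 to OF4, and at 3.21 in NF1, 4.96 in NF3 and 1.81 in NM3. The lowest offshore animal thus stood above the highest nearshore animal by more than the whole offshore range, and NM3 was the lowest of all. The difference was -4.56 (SE 0.68, adjusted p = 0.0173), which is 23.6-fold on the linear scale. Among the transporters it was also the largest in size, though its nearshore mean of 3.33 ± 1.58 (SD, n = 3) lies below the median level of the table, which makes the fold uncertain.

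Both other mitochondrial titles of the group with an unadjusted p under 0.05 were lower nearshore as well, and neither passed the adjusted test. Solute Carrier Family 25, Member 10 (SLC25A10) exchanges malate and succinate for phosphate. It was at 3.87, 3.49, 3.57 and 4.99 in OF1 to OF4, and at 3.03 in NF1, 3.09 in NF3 and 1.44 in NM3. The sites did not overlap, and the gap between them was small beside the distance of NM3 from NF1 and NF3. The difference was -1.46 (SE 0.54, adjusted p = 0.137). Solute Carrier Family 25, Member 21 (SLC25A21) carries oxodicarboxylates, intermediates of lysine and tryptophan breakdown. It was at 8.65, 9.07, 8.28 and 9.05 offshore, at 6.92 in NF1 and 6.68 in NF3, and at 8.49 in NM3. The normal females of the 2 sites were far apart, while the imposex animal lay inside the offshore range. The difference was -1.40 (SE 0.47, adjusted p = 0.113). It became -1.96 without NM3 and then passed (adjusted p = 0.0307).

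The remaining 6 mitochondrial titles of the group overlapped between the sites. Member 26 of family 25, the carrier of the methyl donor S-adenosylmethionine, had a difference of -0.38, with a 95% interval from -1.06 to 0.31. Member 19, which imports the thiamine cofactor, had -0.70, with OF1 at 1.64 and the other offshore animals at 3.32 to 3.88. Member 3, the phosphate carrier that feeds ATP synthesis, was bright and variable offshore, from 7.33 in OF2 to 10.04 in OF4, and its difference was 0.68 (interval -0.90 to 2.26). Member 13, the aspartate and glutamate carrier, stood at 6.06 to 6.46 offshore and 6.10 to 6.71 nearshore. Member 22, a glutamate carrier, was dim in all animals, from 1.11 to 1.62. Member 30 had a difference of -0.33.

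Of the 11 titles for amino acid, peptide and neurotransmitter carriers, 0 passed, and the group held the largest positive difference of all transporters. This was Solute Carrier Family 7, Member 11 (SLC7A11), the light chain of the cystine and glutamate exchanger, which supplies cysteine for glutathione. It was at 1.73, 4.08, 2.63 and 1.31 in OF1 to OF4, and at 5.83 in NF1, 3.86 in NF3 and 8.25 in NM3. Animals varied widely at both sites, and OF2 was above NF3. The difference of 3.54 had an SE of 1.07 and an adjusted p of 0.0870. It was 2.41 without NM3, and 4.60 without NF3, the one animal whose removal brought it past the threshold (adjusted p = 0.0496).

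Family 6 couples uptake to sodium and chloride and includes carriers of neurotransmitters. Member 7, a proline carrier, was at 5.81, 5.51, 4.74 and 6.54 offshore, and at 2.69 in NF1, 4.27 in NF3 and 4.07 in NM3. All nearshore animals were below all offshore animals. The difference was -1.97 (SE 0.54, adjusted p = 0.0643). Member 13, a carrier of the transmitter GABA, was at 8.07, 8.33, 7.18 and 7.89 offshore, and at 7.10 in NF1, 6.93 in NF3 and 5.63 in NM3. Here the sites came close, since OF3 was only just above NF1, and the difference was -1.31 (SE 0.44, adjusted p = 0.113). Member 8, the creatine carrier, had a difference of -0.99 and overlapped, with NF1 at 4.20 and NF3 at 6.24. Member 5, a glycine carrier, had 0.44. So 3 of the 4 titles that name family 6 had lower means nearshore, and 0 of the 4 passed. Similar To Serotonin Transporter names a neurotransmitter carrier without a family number and was not matched by the search words. It had a higher mean nearshore, with a difference of 2.61 (SE 0.87, adjusted p = 0.110). The title GLutamate Transporter Family, also not matched, went the other way, with a difference of -2.20 (SE 0.92, adjusted p = 0.181). The sites overlapped in it, since OF1, at 5.77, lay among the nearshore values of 5.37 to 6.43. It passed in 1 of the 7 fits that leave out 1 animal.

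The other carriers of this kind showed no difference that passed. Transmembrane Amino Acid Transporter Protein Family had a difference of -0.76 (SE 0.34), with the sites overlapping because NM3, at 3.00, lay among the offshore values of 2.72 to 3.49. The peptide carriers Solute Carrier Family 15, Member 1 and Member 2 had differences of 0.22 and 0.01, with intervals from -1.03 to 1.48 and from -1.29 to 1.31. The title Amino Acid Transporter was at 1.63 to 1.98 in 6 animals and at 3.12 in NM3. Solute Carrier Family 17, Member 5, which releases sialic acid from lysosomes, has 2 titles in the table. The plain title had a difference of -0.55 and the title beginning with Similar To one of -0.28. In each animal the plain title was the brighter of the 2, but the gap between them ran from 0.41 in NM3 to 3.18 in OF1, so the 2 titles did not give the same picture of the animals. Whether they stand for 1 conch gene is not known.

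Of the 6 titles for sugars and organic ions, 0 passed and 2 separated the sites. Solute Carrier Family 2, Member 13 (SLC2A13), a proton-coupled carrier of myo-inositol, was at 9.68, 9.83, 9.55 and 10.09 offshore, and at 8.43 in NF1, 9.48 in NF3 and 8.98 in NM3. OF3 and NF3 almost touched, and the difference was -0.82 (SE 0.31, adjusted p = 0.142). Solute Carrier Family 22, Member 15 (SLC22A15), of the family of organic ion carriers, was at 6.33, 6.41, 6.24 and 5.90 offshore, and at 6.67 in NF1, 6.78 in NF3 and 7.65 in NM3. NM3 was the highest, and the difference was 0.81 (SE 0.31, adjusted p = 0.148). Member 18 of family 22 was bright and even, at 10.04 to 10.80 in all 7 animals, with a difference of -0.08 (interval -0.74 to 0.57). Member 5 of that family, a carnitine carrier in mammals, was higher in NF1 (2.98) and NF3 (3.58) than in any offshore animal (1.91 to 2.54), whereas NM3 was the lowest at 1.02. The title Organic Anion Transporter was at 1.11 to 2.36 in 6 animals and at 3.38 in NM3.

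All 3 titles for nucleosides, nucleotides and choline had higher means nearshore, and 0 passed. Solute Carrier Family 44, Member 2 (SLC44A2), a choline transporter-like protein, was at 3.78, 3.26, 3.40 and 3.85 offshore, and at 4.79 in NF1, 5.32 in NF3 and 4.21 in NM3. Every nearshore animal was above every offshore animal, with NM3 the closest to them. The difference was 1.20 (SE 0.33, adjusted p = 0.0649), and it passed without NM3, at 1.49 (adjusted p = 0.0448). Solute Carrier Family 35, Member B2 (SLC35B2), which brings the sulfate donor PAPS into the Golgi, separated the normal females of the sites. It was at 5.61 to 5.87 offshore, at 6.40 in NF1 and 6.65 in NF3, and again at 5.61 in NM3, and the difference over all animals was 0.50 (SE 0.30, adjusted p = 0.343). Solute Carrier Family 28, Member 3, a nucleoside carrier, was the most variable transporter title offshore, from 1.00 in OF2 to 4.29 in OF1. Its nearshore values of 2.33 to 5.13 overlapped with them.

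In the 10 titles for inorganic ions and ion pumps, 1 rose, 0 fell and 9 did not pass. SLC12A1, known from the mammalian kidney as the salt uptake carrier that loop diuretics block, was at 4.90, 4.28, 4.15 and 4.20 in OF1 to OF4. It was at 5.92 in NF1, 6.53 in NF3 and 5.86 in NM3. The 3 nearshore animals lay close together and above all offshore animals, of which OF1 was the highest. The difference was 1.72 (SE 0.30, adjusted p = 0.0203), which is 3.30-fold, with a 95% interval from 1.02 to 2.42. Its spread was much the same at both sites, with an SD of 0.35 offshore (n = 4) and 0.37 nearshore (n = 3).

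Exchangers of sodium for protons went in different directions. Solute Carrier Family 9, Isoform 9 (SLC9A9), which sets the acidity of endosomes, was at 3.84, 3.38, 3.39 and 3.37 offshore, and at 1.93 in NF1, 3.16 in NF3 and 0.77 in NM3. OF2, OF3 and OF4 were nearly equal, whereas the nearshore animals were spread below them. The difference was -1.54 (SE 0.52, adjusted p = 0.114), and -2.15 without NF3 (adjusted p = 0.0408). Similar To Solute Carrier Family 9, Member 8, by name an exchanger of the Golgi, was at 6.47 to 7.69 offshore, at 8.20 in NF1, 6.63 in NF3 and 10.02 in NM3. The sites overlapped, and the difference of 1.37 (SE 0.75) did not pass.

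The title that joins the fly gene CG10244, a reverse transcriptase and Similar To Solute Carrier Family 34, Member 2 had a difference of 1.48 (SE 0.60, adjusted p = 0.171). It was at 8.88, 9.03, 8.53 and 7.27 offshore, at 9.29 in NF1, 9.31 in NF3 and 11.12 in NM3. The sites did not overlap, but only NM3 was far from the offshore animals. Which of the 3 names fits the conch sequence is not known, so its reading as a phosphate carrier is uncertain. Both calcium pumps had lower means nearshore and did not pass. The title ATPase, Ca++ Transporting, Cardiac Muscle, Fast Twitch 1, for the pump that fills the sarcoplasmic reticulum, had a difference of -0.66 (SE 0.41), with NM3 lowest at 4.42 and the others at 5.39 to 6.24. The plasma membrane pump had -0.70, and rested on OF3 at 3.13 where all other animals were at 1.12 to 1.67.

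The potassium-dependent exchangers of sodium for calcium were bright. Solute Carrier Family 24, Member 3 was at 8.44 to 9.33 in all animals, with a difference of -0.01 and an interval from -0.69 to 0.67. Member 5, known for its part in pigmentation, had the highest single value of the transporters, 12.16 in OF1, with the other offshore animals at 9.63 to 10.73, NF1 at 10.48 and NF3 at 10.14. Its fit rested on 2 nearshore animals, with a difference of -0.24 (SE 0.75). The sulfate and anion carrier Solute Carrier Family 26, Member 11 had 0.26, and the bicarbonate exchanger title Similar To Solute Carrier Family 4, Member 8 had -0.48.

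The 2 metal carriers did not pass. Solute Carrier Family 30, Member 5, which loads zinc into the secretory pathway, varied at both sites, from 3.76 to 5.80 offshore and from 3.72 to 5.32 nearshore, with a difference of -0.52 (interval -1.85 to 0.82). Similar To Solute Carrier Family 31, Member 2, by name a copper carrier, was at 0.99 to 1.15 in all animals. The plant title Auxin:hydrogen Symporter was likewise at 1.02 to 1.17. These are the 2 transporter titles whose 7 values lay within 0.30 of each other, both near the bottom of the table, where a level cannot be told from background. Finally, 2 titles matched by their wording do not name transporters. Solute Carrier Family 4, Member 1, Adaptor Protein is an adaptor and overlapped between the sites (-0.33). Solute Carrier Family 9, Isoform 3 Regulatory Factor 2, a scaffold that anchors transporters below the membrane, was at 2.54 to 3.02 offshore and 2.14 to 2.34 nearshore, without overlap, and had a difference of -0.52 (SE 0.23, adjusted p = 0.209).

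**Figure D3:**
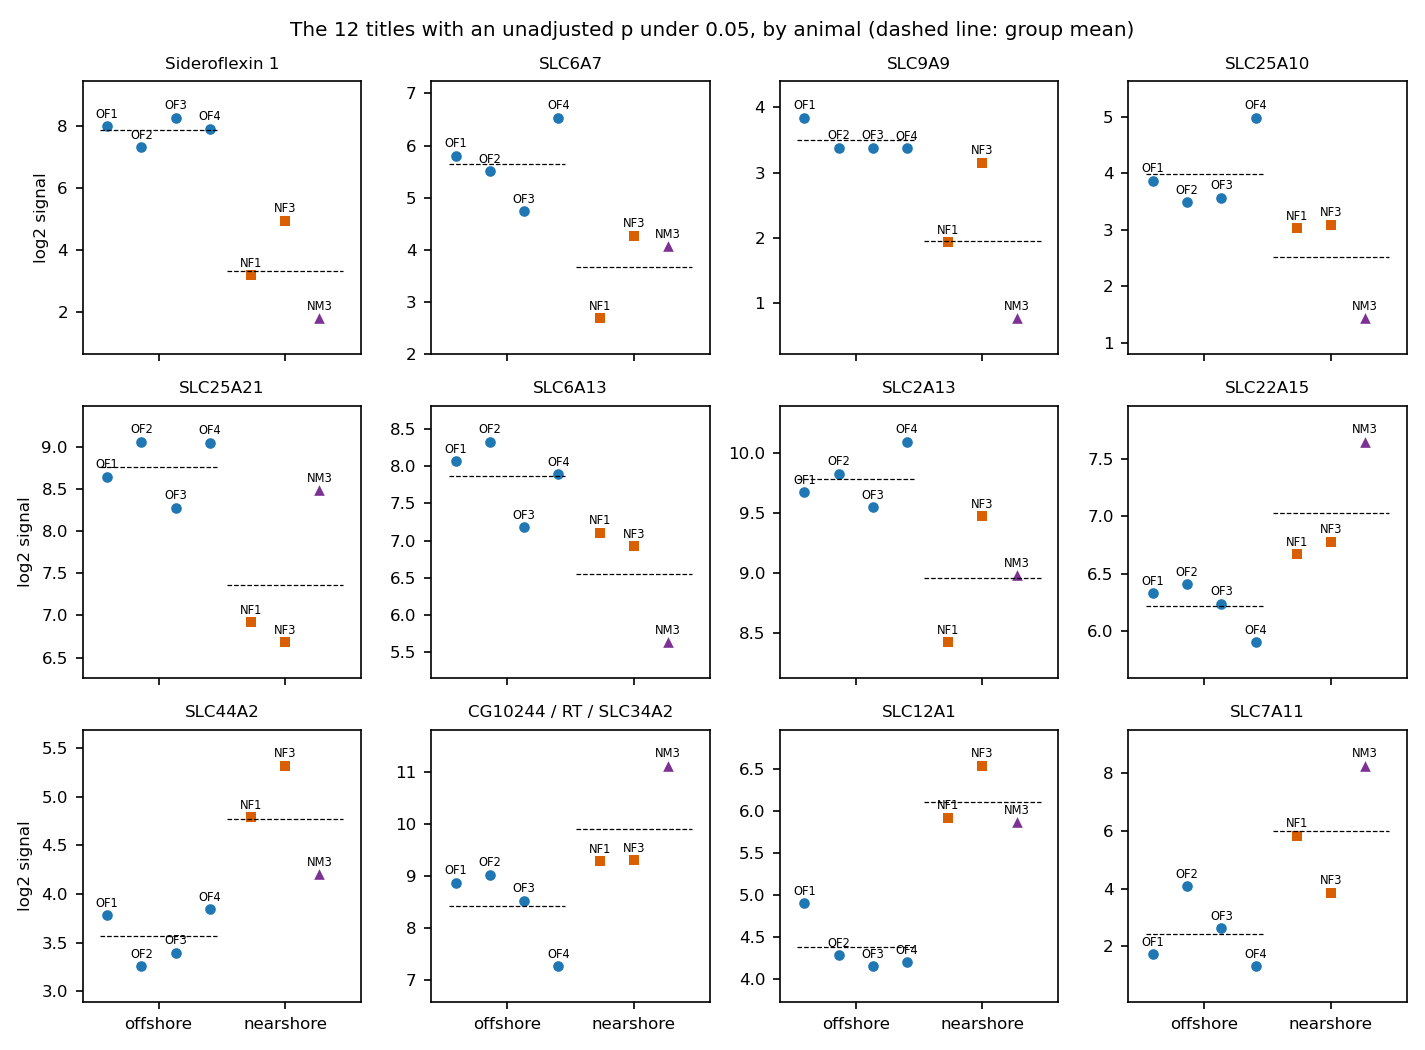
Log2 signal by animal for the 12 transporter titles with an unadjusted p under 0.05, ordered from the most negative to the most positive difference, each panel with its own vertical axis and dashed lines at the group means. In SLC12A1 the 3 nearshore animals lie together at 5.86 to 6.53, whereas in Sideroflexin 1, SLC9A9 and SLC7A11 they lie at 1.81 to 4.96, 0.77 to 3.16 and 3.86 to 8.25.

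Among the 4 offshore animals, 13 transporter titles had an SD under 0.30 (30.2%, against 29.5% of all titles) and 11 an SD over 0.80 (25.6%, against 16.2%). The median SD was 0.39, against 0.44 over all titles. The most variable titles were Solute Carrier Family 28, Member 3 (SD 1.35), SLC7A11 (1.23), Solute Carrier Family 24, Member 5 (1.19) and Solute Carrier Family 25, Member 3 (1.13). Among bright titles, SLC2A13 (0.23) and Solute Carrier Family 22, Member 18 (0.31) were even. Nearshore the median SD was 0.57, against 0.54 over all titles.

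The imposex animal NM3 has no replicate, so its values are described only. Its array lacked a value for 45 titles, against at most 3 on any other array, and had the lowest array mean (5.83). Whether this bears on the values of NM3 was not tested. Over the 42 titles with a value in NM3, it lay below both NF1 and NF3 in 19, between them in 9 and above both in 14. As shares these are 45.2%, 21.4% and 33.3%, against 39.2%, 26.5% and 34.3% of all titles. NM3 was the lowest of the 7 animals in 12 transporter titles (28.6%, against 20.3% of all titles) and the highest in 9 (21.4%, against 16.5%). NF1 was the highest in 0 of the 42, against 725 of the 4275 titles with all values, and NF3 in 8. The widest distances of NM3 from the mean of NF1 and NF3 were 3.40 in SLC7A11, 2.61 in Similar To Solute Carrier Family 9, Member 8, -2.27 in Sideroflexin 1 and -2.26 in Solute Carrier Family 22, Member 5. NF1 and NF3 themselves were 1.98, 1.57, 1.75 and 0.60 apart in these titles. In SLC25A21 and SLC35B2, NM3 was on the offshore side and NF1 and NF3 were 0.24 and 0.25 apart.

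Single animals decided which transporter titles passed. Sideroflexin 1 passed in 4 of the 7 fits that leave out 1 animal, and not without OF3, OF4 or NF1, although its difference stayed between -5.38 and -3.80. SLC12A1 passed in 2 of these fits, without OF1 and without NM3, with differences of 1.51 to 1.90. Without OF1, OF3 and NM3, the animals highest in the amylase title, the difference was -3.54 for Sideroflexin 1 and 1.99 for SLC12A1, and neither passed with 2 animals a site (adjusted p = 0.162 for each). The number of transporter titles that changed was 4 without NM3, 3 without NF3, 2 without OF1, 1 without OF2, and 0 without OF3, OF4 or NF1. Over all titles 302, 206, 204, 164, 42, 34 and 116 changed in the same fits, or 6.98%, 4.76%, 4.71%, 3.79%, 0.970%, 0.786% and 2.68%. The 4 without NM3 were Sideroflexin 1 and SLC25A21, which were lower nearshore, and SLC12A1 and SLC44A2, which were higher.

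**Figure D4:**
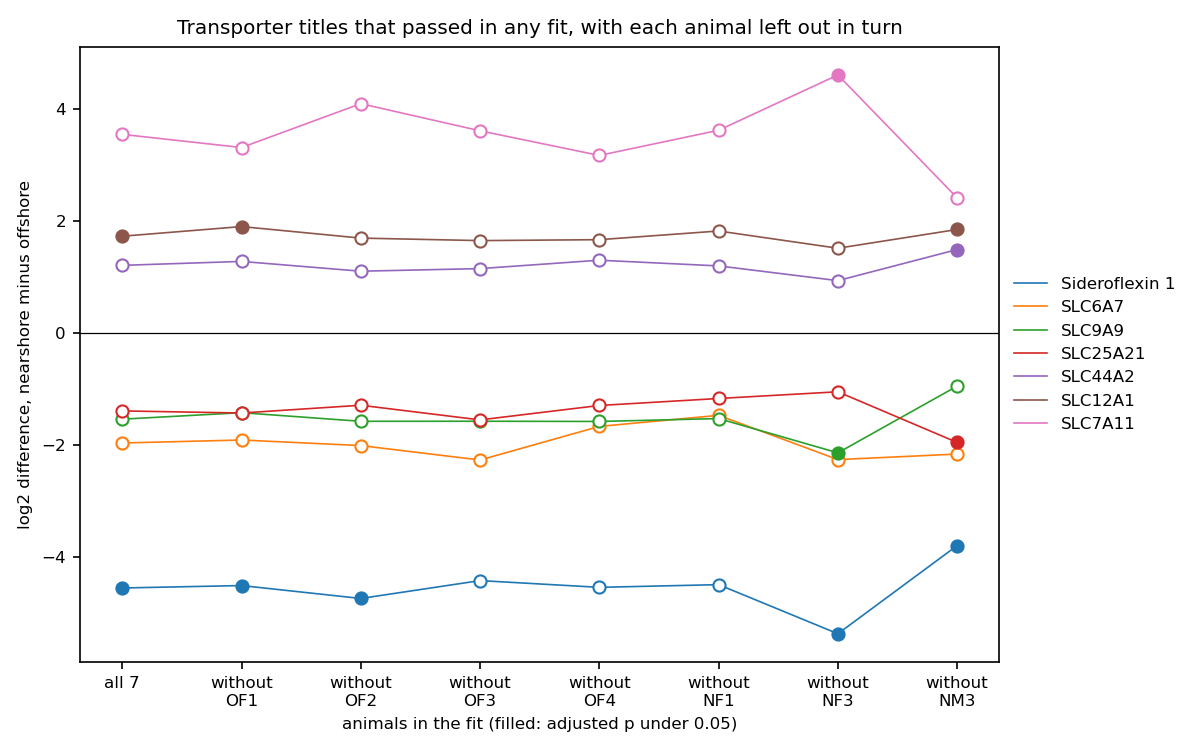
Log2 difference between nearshore and offshore means for the 7 transporter titles that passed in any of the fits tried, with all 7 animals and with each animal left out in turn (filled points: adjusted p under 0.05). All lines stay on their side of 0, and the widest ranges are those of SLC7A11 (2.41 to 4.60) and Sideroflexin 1 (-5.38 to -3.80), each between the fits without NM3 and without NF3.

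Other transport titles, grouped by words in the title, also mostly did not pass, and their counts are to be read against the 9.24% of all titles that changed. The ABC family consists mostly of pumps that spend ATP to move lipids and other compounds, but its Sub-family F does not name transporters. Of 6 ABC titles, 1 of them of Sub-family F, 1 fell. This was ATP-binding Cassette, Sub-family A, Member 2, at 4.50 to 5.17 offshore and 2.71 to 3.83 nearshore, with a difference of -1.61 (SE 0.34, adjusted p = 0.0339). Of 23 channel titles 1 rose, Ca2+-channel Protein 1 Subunit D, by 1.81 (SE 0.45, adjusted p = 0.0499). Of 6 carnitine titles, of which 5 name transferase enzymes and 1 a carrier, 1 rose. This was the mitochondrial carrier of carnitine and acylcarnitines, which brings fatty acids to oxidation. It was at 6.42 to 6.79 offshore and at 9.76 in NF1, 9.28 in NF3 and 8.12 in NM3, with a difference of 2.49 (SE 0.40, adjusted p = 0.0176), opposite in direction to Sideroflexin 1.

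Of 30 further titles with the word transporter or porin, 3 rose and 0 fell, a share close to that over all titles. Copper Transporter 1C, at 6.21 to 7.16 offshore and 9.47 to 10.12 nearshore, rose by 2.86 (SE 0.32, adjusted p = 0.0108) and passed in all 7 fits without 1 animal. The copper title in the solute carrier group was flat near the bottom of the table, as described above. Carbohydrate Transporter/ Sugar Porter/ Transporter rose by 1.88 (SE 0.45), from 1.56 to 3.33 offshore to 4.32 to 4.90 nearshore. The similar title Carbohydrate Transporter/ Sugar Porter did not pass and overlapped, with a difference of 0.22 (adjusted p = 0.771). AT-IMP; Protein Transporter rose by 2.02 (SE 0.40) and by its name carries proteins, not solutes. The sugar porter title that rose, the AT-IMP title, the channel title and the ABC title each passed in 1 of the 7 fits without 1 animal. By wording, 7 of these 30 titles name electron transporters and 3 name protein transporters, so the count is not one of solute transporters alone.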

How the data were processed

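Ovary RNA of each animal received the dye Cy3 and was hybridised to 1-colour oligonucleotide arrays, per the labels' protocols, and the submitters' processing notes name Agilent Feature Extraction. The authors deposited log2 values, 1 per gene title and array; the log base was read from their range (0.27 to 17.53). The sources used here do not say how they corrected background, normalized, or condensed probes to titles. Nearly equal array means were taken as a sign of normalization between arrays. Each title was fitted with limma 3.58.1 in R 4.3.3 (lmFit and eBayes, site as the term, two-sided), and p-values were adjusted over all 4328 titles with the Benjamini-Hochberg method. SE is the moderated standard error. No filter was set on dim titles; 53 titles lacking 1 value were fitted on the others. The fit was tested on simulated data. Arrays give no depth, so their number limits the precision.

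The members, lists and tests were chosen with earlier results of these data known. Titles named are those that passed, up to 4 more per kind of transporter with the smallest p, titles that lack a value and titles that name no transporter; the others were named so that every member is accounted for. The alternatives were 3 normalizations, a filter on dim titles, array weights, 3 other variance models, each animal left out in turn, the number in the animal's code as a block, and 2 other thresholds. A fit without OF1, OF3 and NM3 was added after seeing the data.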

Additional observations from a re-analysis of the deposited data

Results flagged for a closer look

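Among the offshore animals, 2 of the 43 transporter titles (4.65%) had 1 animal far from the other 3, about the 1 in 20 that chance gives. Both times the animal was OF1. For Solute Carrier Family 25, Member 13, it was at 6.46 and the others at 6.06 to 6.12. For Solute Carrier Family 9, Isoform 9, it was at 3.84 and the others at 3.37 to 3.39. The gap to the nearest animal was 0.856 and 0.976 of the whole offshore range, above Dixon's limit for 4 samples. Groups of 3, such as the nearshore animals, were not tested.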

How the results depend on the processing

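Sideroflexin 1 and Solute Carrier Family 12, Member 1 both passed under all 3 normalizations, the filter on dim titles, array weights and both mean-dependent priors. Against 2 changed titles (1 risen, 1 fallen), the ordinary pooled-variance test gave 1, with 0 fallen. Array weights gave 2 risen, and the filter leaving out the lowest 25% of titles 2 fallen. An adjusted p under 0.01 gave 0 changed, 0 risen and 0 fallen, and one under 0.10 gave 5, 3 and 2. Leaving out 1 animal gave 0 to 4 changed, 0 to 2 risen and 0 to 2 fallen. The digits in the animal codes share only a number between sites; with this replicate block 0 of all 4328 titles changed, so 0 transporter titles changed, 0 rose and 0 fell. Without OF1, OF3 and NM3, a choice made after seeing the data, limma called 0 of all titles (953 had an unadjusted p under 0.05) and thus 0 changed, 0 risen and 0 fallen transporter titles, with a median of -0.20. The median difference of -0.08 became -0.28 with the filter, -0.22 to -0.014 without 1 animal, and positive with cyclic loess (0.018) and the replicate block (0.019). The cause of these shifts was not tested. Over the other alternatives the sign turned in 14 of the 43 titles, none of which had passed: 12 without 1 animal, 6 with the replicate block and 6 under another normalization, filter, weight or variance model. Of these 14, 6 are titles named by the rule. Among those 6, the replicate block turned Solute Carrier Family 28, Member 3 (-0.13), Similar To Solute Carrier Family 31, Member 2 (-0.021) and Solute Carrier Family 4, Member 1, Adaptor Protein (0.17). Similar To Solute Carrier Family 31, Member 2 was also at -0.012 with median centring and -0.0008 with array weights. Without 1 animal, the differences ran from -0.22 to 1.06 for Solute Carrier Family 22, Member 5, from -0.12 to 0.82 for Organic Anion Transporter, from -0.28 to 1.17 for Solute Carrier Family 28, Member 3, from -0.54 to 0.30 for Solute Carrier Family 24, Member 5, and from -0.0079 to 0.065 for Similar To Solute Carrier Family 31, Member 2. Without background signals, the 11 titles in the lowest 25% of the table have no known detection limit.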

Other observations

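The vacuolar proton pump, which acidifies lysosomes, endosomes and yolk organelles and so sets the gradient that many solute carriers use, was grouped by words in the title with earlier results known. Of its 13 titles, 12 had higher means nearshore, against 2139 of all 4328 titles. The median difference was 0.76, against -0.01 over all titles. Only 1 title passed, and it rose (7.69%, against 9.24% of all titles changed and 3.90% higher nearshore). That was Similar To Vacuolar ATP Synthase 21 KDa Proteolipid Subunit, part of the ring through which protons pass, at 12.96, 12.02, 12.31 and 12.53 in OF1 to OF4 and at 13.73 in NF1, 13.78 in NF3 and 13.96 in NM3. It rose by 1.36 (SE 0.28, adjusted p = 0.0309), and passed in 1 of the 7 fits without 1 animal. The 16kDa V0 Subunit C title, for the main protein of the ring, was at 7.77 in OF2, 9.69 to 9.87 in the other offshore animals, and 10.03 to 11.37 nearshore, with a difference of 1.54 (adjusted p = 0.157). The 38kDa V0 Subunit D title had 1.27 (adjusted p = 0.129) and Accessory Protein 1 had 1.17 (adjusted p = 0.127). The joined title of V0 Subunit E had the largest difference of the list, 1.91 (adjusted p = 0.0735). In each of these the sites did not overlap, as in 6 of the 13 titles (46.2%, against 24.4% of all titles). The exception in direction was the joined title of V0 Subunit A Isoform 1, with -0.81. OF2 was the lowest offshore animal for 8 of these 13 titles.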
